A study of Drosophila melanogaster with 2 samples.

Results

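The segmentation genes of the early fly embryo were examined for binding of NFAT, the fly member of a family of Rel-domain transcription factors. The 10 genes were chosen by name from 13968 protein-coding genes. They were the gap genes hb, Kr, kni and gt, the pair-rule genes eve, ftz, run and prd, and the segment polarity genes en and wg. Binding was measured by ChIP-seq, in which chromatin attached to a protein is recovered with an antibody and sequenced. Both samples were whole Drosophila melanogaster embryos, aged 0 to 24 h, of a strain labelled NFAT-GFP, in which transgenic flies express an NFAT-eGFP fusion, and chromatin was recovered with an anti-GFP antibody. They were biological replicates 1 and 2 of the same group, and no control immunoprecipitation was analysed here, so no condition is compared with another and no test between samples was possible. The labels of both samples also name an insertion targeting Drosophila melanogaster NFAT. Which promoter drives the fusion was not stated in the labels. The collection mixes all embryonic stages and cell types, so binding in fewer cells and weaker binding per cell cannot be told apart.

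In the fly blastoderm, maternal gradients switch on the gap genes in broad domains, and gap proteins then position the pair-rule genes in stripes. Pair-rule proteins set up the segment polarity genes, which hold the boundary of each segment through signalling between neighbouring cells. Many of these genes are known for separate enhancers, placed upstream, downstream or in introns, that each drive part of the pattern. A peak at the promoter and a peak in the flanking enhancer sequence were therefore kept apart. The window of a gene was its body plus 10 kb on either side. A summit within 500 bp of an annotated transcription start site (TSS) was a promoter summit. Peaks in the larger list that passed the authors' limit on the irreproducible discovery rate (IDR, an estimate of how often a peak's rank fails to repeat) are called thresholded, and 4899 lay on the chromosome arms. A longer list of 132548 peaks on the arms is called ranked, since most of its peaks did not pass. Signal is the authors' value per peak, on a scale that the sources leave unstated, and it is compared only within a list. Sequencing depth is unknown.

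Promoter sequences are shown first for hb and wg, since thresholded peaks lay there, and for prd, since its ranked promoter peak came nearest to the limit without passing. The sequence at the thresholded en peak is not shown here. Each spans 50 bp on either side of a summit, 5′ to 3′ on the strand of the gene, from the Release 6 genome (dm6 coordinates). Capitals mark the NFAT core GGAAA or the GAGA element GAGAG on either strand.
hb, downstream of the proximal TSS, minus strand, chr3R:8694272-8694372: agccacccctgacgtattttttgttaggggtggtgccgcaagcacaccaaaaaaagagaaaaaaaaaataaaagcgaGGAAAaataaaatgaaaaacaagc
wg, upstream of the TSS, plus strand, chr2L:7306951-7307051: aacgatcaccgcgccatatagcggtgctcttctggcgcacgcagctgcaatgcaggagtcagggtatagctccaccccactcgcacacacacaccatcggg
wg, in the coding sequence, plus strand, chr2L:7307594-7307694: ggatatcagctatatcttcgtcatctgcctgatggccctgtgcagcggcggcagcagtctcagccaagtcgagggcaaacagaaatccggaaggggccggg
prd, upstream of the TSS, minus strand, chr2L:12085902-12086002, a ranked summit that did not pass the limit: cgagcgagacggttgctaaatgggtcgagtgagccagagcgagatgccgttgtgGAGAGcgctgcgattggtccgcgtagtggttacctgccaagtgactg

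The windows of the segmentation genes held 6 thresholded NFAT-eGFP summits, each within 500 bp of a protein-coding TSS. With a promoter limit of 250 bp, 2 of the genes (hb and wg) had a summit outside promoters. Of the 10 genes, 5 (hb, eve, prd, en and wg) had a thresholded summit in the window (95% exact binomial interval 18.7 to 81.3%), against 66.1% of all protein-coding genes. At their own promoters, 3 did (hb, en and wg, interval 6.67 to 65.2%), against 23.4% of all genes. None of the 10 had a thresholded summit in the window that was over 500 bp from every protein-coding TSS (interval 0.0 to 30.8%), against 30.4% of all genes. Kr is counted among the 10 in each share, though its window held no ranked peak at all, as for 2.72% of all genes. The intervals cover counting error only, and in this list each holds the share of all genes. In some other lists the interval for the window lay below that share. These lists draw on the same 2 samples, so they are not separate evidence, and their intervals were added after the data were seen. The 10 genes were chosen by name. Their windows held the TSS of a median of 0 other genes, against 5 over all genes, so the share of all genes is not a matched reference. The intervals also treat genes chosen by name as random draws. They are descriptive and not a test, and no depletion can be read from them. The conservative list had 2 of 10 (2.52 to 55.6%) against 59.7% of all genes, and replicate 1 alone had 0 of 10 (0.0 to 30.8%) against 45.2%. The stronger 50% of the peaks gave 1 of 10 (0.253 to 44.5%) against 49.2%, while replicate 2 alone gave 4 of 10 (12.2 to 73.8%) against 60.6%. At the own promoter the interval held the share of all genes in each of these lists. The 6 thresholded summits had signals from 57.6 to 93.3. The median over all thresholded promoter peaks was 102.2, above each of the 6. The median over all thresholded peaks was 91.8, above all but the peak at TER94 in the eve window. The 2 summits of the conservative list lay at the neighbours of eve and prd.

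**Figure D1:**
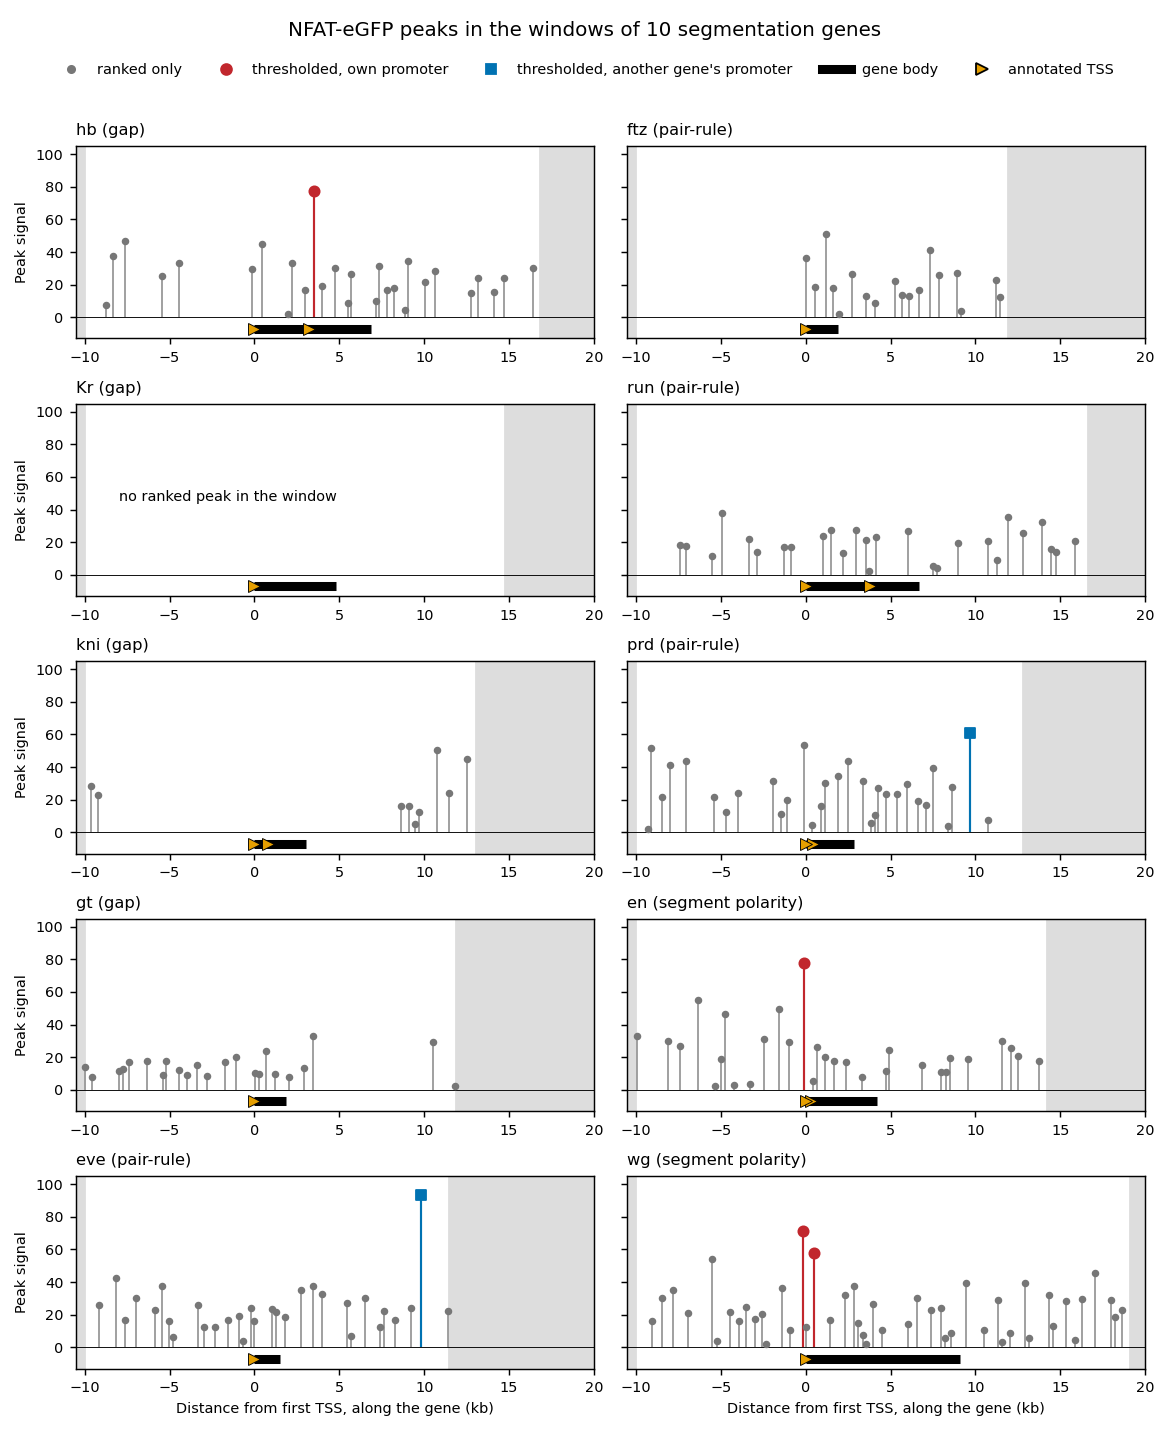
Signal of each ranked peak (points, height on the vertical axis) against distance from the first TSS of each gene in kb, with the gene running left to right, black bars for gene bodies and grey areas outside the window. The 4 red points at hb, en and wg are thresholded promoter peaks, the blue squares in the windows of eve and prd are thresholded peaks at TER94 and CG14947, and Kr has no ranked peak.

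Among the gap genes, only hb held a thresholded peak. It encodes a zinc finger protein that patterns the anterior of the embryo, and it is known for a distal promoter and a proximal one, the latter activated by Bicoid. The peak (3R, 8694180 to 8694463, signal 77.4, rank 3117 of 4899) had its summit 278 bp downstream of the proximal TSS at 8694600, in an annotated intron. That is the intronic sequence with the GGAAA match and a run of adenines printed above. In the ranked list of replicate 1 the overlapping peak had a signal of 21.6, higher than 88.4% of the peaks of that list, with a global IDR of 0.235. In replicate 2 it had a signal of 54.8, at percentile 97.5, with a global IDR of 0.00119. It passed the limit of 0.01 in replicate 2 and not in replicate 1. At the distal promoter a ranked peak 426 bp downstream of the TSS had a signal of 44.7 and an IDR of 0.0928.

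The other gap genes had weak peaks or none near their promoters. For gt, which encodes a leucine zipper repressor, the strongest of 2 ranked promoter peaks had a signal of 10.2, at percentile 15.9 of all ranked peaks. A stronger one was present in 77.2% of all genes, and no ranked peak of either replicate overlapped the gt peak. No ranked peak lay at either TSS of kni, which encodes a nuclear receptor family protein. The 9 ranked peaks in the kni window were all in its outer parts, and the nearest summits lay 9.2 kb upstream and 5.6 kb downstream of the gene. That empty stretch measured 17.8 kb between summits in the series-level list and 21.7 kb in replicate 2. In the other series-level ranked list the nearest summits on either side of the gene lay 14.8 kb apart, and in replicate 1 5.8 kb apart. Whether the gene body held summits in those 2 lists was not examined. The strongest peak in the kni window, 10774 bp downstream of the first TSS, had a signal of 50.5 and an IDR of 0.310.

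Kr, a zinc finger repressor of the central domain, had no ranked peak anywhere in its window of 24.8 kb. The same held in all 4 ranked lists, where the empty stretch around it ran from 115.7 to 137.6 kb. It lies 55.5 kb from the end of arm 2R, and its window holds no unknown bases in the reference. Windows with no ranked summit occurred for 2.72% of all protein-coding genes, and for 1.05% of those on this arm. The cause of this empty stretch was not tested.

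The pair-rule genes had no thresholded peak at their own promoters. For eve, the homeobox gene whose stripes are driven by enhancers on both sides, the only thresholded summit lay 9782 bp downstream of its TSS (2R, 9988959 to 9989242, signal 93.3). It was 58 bp from the TSS of TER94, which encodes an AAA-type ATPase of the p97 family. At the eve promoter itself the strongest ranked peak, 227 bp upstream, had a signal of 23.9 and an IDR of 0.262, and no ranked peak of replicate 2 overlapped it. The strongest ranked flank peaks of eve lay 5456 bp upstream (signal 37.5) and 3440 bp downstream of the TSS (signal 37.3), at percentiles 84.9 and 84.6. Neither reached the limit, with IDRs of 0.368 and 0.609, and no ranked peak of replicate 1 overlapped the upstream one.

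For prd, which encodes a paired-domain and homeodomain protein, the window also held a neighbour's peak (2L, 12075974 to 12076257, signal 60.7), 16 bp from the TSS of CG14947. Replicates 1 and 2 gave that peak nearly the same standing, at percentiles 95.4 and 95.5 of signal. The IDRs were far apart, at 0.759 in replicate 1 and 0.0128 in replicate 2, and neither passed the limit. The ranked peak at the prd promoter, 125 bp upstream of the TSS, had a signal of 53.7 and missed the limit with an IDR of 0.0236. It stood at percentile 80.1 in replicate 1 and 92.5 in replicate 2.

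Of the remaining pair-rule genes, ftz, a homeobox gene next to the Hox genes, had a ranked peak 14 bp downstream of its TSS (signal 36.5, IDR 0.0698). Its strongest ranked peak lay in the gene body, 1205 bp downstream of the TSS, with a signal of 50.9 and an IDR of 0.389. None of the 4 ranked lists had a summit in the 10 kb upstream of ftz, where the zebra element that drives its stripes is known to lie. The nearest upstream summit was 20.6 kb from the gene in the series-level list, 22.4 kb in replicate 1 and 18.7 kb in replicate 2. That list held 9.64 ranked summits per 10 kb over all arms. The cause of this empty stretch was not tested, so it cannot be read as absence of binding at the zebra element. The peak at the ftz TSS (6864196 to 6864479) itself began upstream of that TSS at 6864324. For run, which encodes a Runt-domain factor, the strongest of 3 ranked promoter peaks had a signal of 23.3 and an IDR of 0.799. It was overlapped by no ranked peak of either replicate. The strongest flank peak of run, 4914 bp upstream, had a signal of 37.6 (IDR 0.169).

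Both segment polarity genes held thresholded promoter peaks. The peak at en, the homeobox gene of posterior compartments (2R, 11528191 to 11528474, signal 77.6, rank 3097), had its summit 123 bp upstream of the TSS. The sequence within 50 bp of this summit held 3 overlapping matches to GAGAG, which was at 14.1% of all thresholded summits. Upstream sequence of en is known for Polycomb response elements, and whether this peak lies in one was not tested. The signal of the peak was 20.9 in replicate 1 (percentile 86.9, IDR 0.174) and 53.5 in replicate 2 (percentile 97.4, IDR 0.00315). A further ranked peak, 1565 bp upstream of the TSS, fell just outside the limit, with a signal of 49.6 and an IDR of 0.014, and stood at percentiles 94.1 and 93.5 in replicates 1 and 2. The strongest flank peak of en, 6332 bp upstream, had a signal of 54.8 and an IDR of 0.0572.

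wg, which encodes the Wnt ligand Wingless, had a pair of promoter summits. One (2L, 7306859 to 7307142, signal 71.4) lay 158 bp upstream of the TSS at 7307159. The other (2L, 7307502 to 7307785, signal 57.6) lay 485 bp downstream, in the coding sequence and just inside the 500 bp limit. The upstream peak was at percentile 87.4 in replicate 1 and 97.1 in replicate 2, where it passed. The downstream peak was at 95.1 in replicate 1 and 92.1 in replicate 2, passed in neither, and was the thresholded peak nearest to the limit (IDR 0.00628). Next outside it at wg was a ranked peak 5534 bp upstream of the TSS, with a signal of 53.97 and an IDR of 0.0427.

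**Figure D2:**
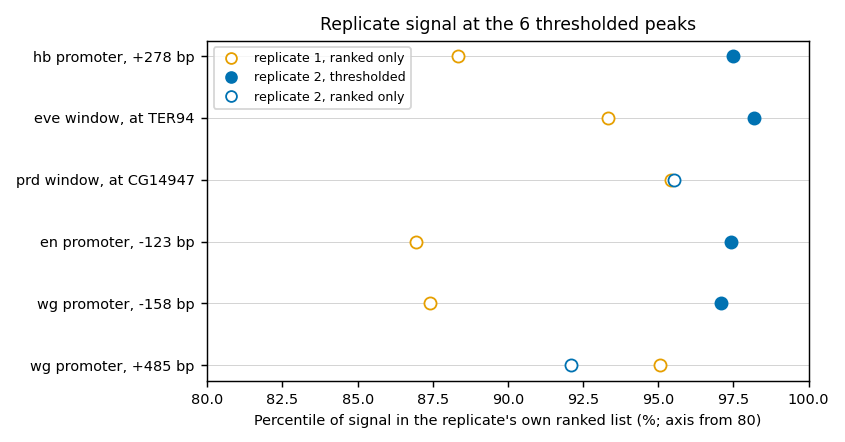
Percentile of signal in the ranked list of each replicate (horizontal axis, %) for the 6 thresholded peaks, filled where the peak also passed in that replicate alone. Replicate 2 is higher at the promoters of hb and en, the upstream wg peak and TER94, replicate 1 is higher at the downstream wg peak, and both meet at CG14947.

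The replicates differed in how they ranked these sites. At the promoter peaks of hb and en and the upstream wg peak, replicate 1 stood at percentiles 86.9 to 88.4 and replicate 2 at 97.1 to 97.5. These peaks passed in replicate 2 alone and not in replicate 1 alone, and the conservative list holds none of the 4 promoter peaks. Replicate 1 had 2236 thresholded peaks on the arms and replicate 2 had 3994.

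Over all ranked peaks, those that passed the limit included, promoters and flanks were compared by rank. The 10 windows held 244 ranked peaks, 10.1 per 10 kb against 9.64 over all arms, and 6 of them (2.47 per 100 kb) were thresholded against 3.56 per 100 kb over all arms. Their median percentile among all ranked peaks was 46.0, below the midpoint of that list. By gene the median ran from 22.8 for gt to 58.9 for hb, with Kr giving no value. By position, the 21 peaks at the genes' own promoters had a median percentile of 54.9, the 77 upstream 41.1, the 99 downstream 46.2, the 17 in introns 34.0 and the 22 in exons 54.8. The 8 peaks at promoters of neighbours had a median of 83.5. These 2 promoter groups include the thresholded peaks, 4 of the 21 and 2 of the 8, while the other groups include none. Across all ranked peaks the median was 65.6 within 500 bp of a protein-coding TSS and 48.1 elsewhere.

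A ranked promoter peak of any strength was present at 8 of the 10 genes, all but Kr and kni, against 79.5% of all protein-coding genes. Ordered by its signal, en (77.6), hb (77.4) and wg (71.4) came close together, prd (53.7) and ftz (36.5) followed, and eve (23.9), run (23.3) and gt (10.2) were lowest. A stronger promoter peak was found in 18.6% of all genes for en, 18.7% for hb, 20.1% for wg, 27.0% for prd, 42.8% for ftz, 62.1% for eve and 63.0% for run. The strongest peak in a flank reached percentiles 70.5 (gt) to 95.4 (en) of all ranked peaks. In hb, en, wg and prd the strongest promoter peak was above the strongest flank peak, and in gt, eve, ftz and run it was below. Flanks held more ranked peaks than promoters in each of these genes, so the highest of many was set against the highest of few.

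**Figure D3:**
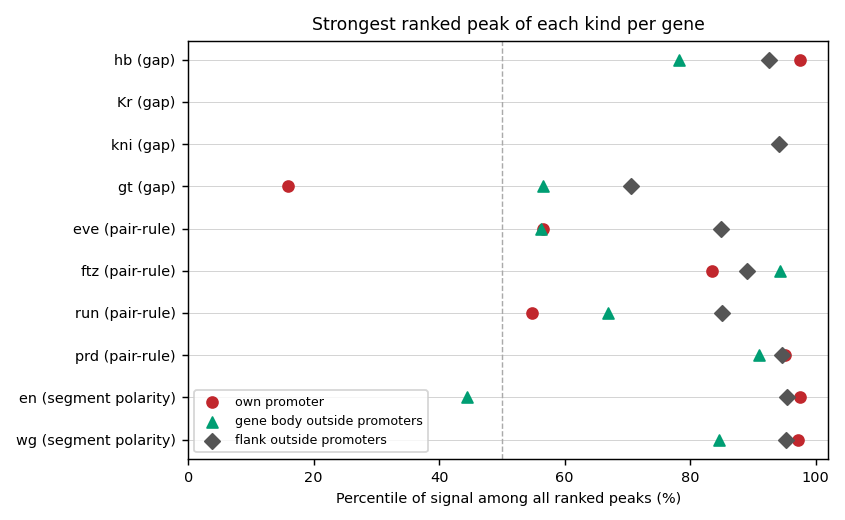
Percentile of signal among all ranked peaks (horizontal axis) of the strongest ranked peak at the own promoter (circles), in the gene body (triangles) and in the flanks (diamonds) of each gene, with the dashed line at the midpoint. Circles lie beyond 95 for hb, prd, en and wg, at 15.9 for gt, and are missing for Kr and kni.

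No listed motif was present at all 6 thresholded summits. The NFAT core GGAAA was within 50 bp of 3 of the 6 summits, those at hb, TER94 and CG14947, and of 26.4% of all thresholded summits. The longer NFAT site (TGGAAANAT or TGGAAANTT) was at none of the 6 and at 2.14% of all. GAGAG was at en alone among the 6, and at 14.1% of all summits. A run of TTTTTTT, the letters used for Hunchback, was at hb alone and at 8.10% of all. None of the 6 held the Zelda motif CAGGTAG (0.429% of all), the Bicoid core TAATCC (2.96%), the Caudal motif TTTATG (8.59%), the Kruppel motif AAGGGTT (0.878%), the Stat92E motif TTCNNNGAA (2.53%), the DRE TATCGATA (3.25%), the CACTG core (1468 of 4899), the CTCF-like core AGGTGGCGC (0.959%) or the Rel site GGGANTTCC (0.184%). These letters were searched on both strands, and a missing match says only that they are not in those windows.

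Other genes of the segmentation cascade, in 5 lists of 54 genes, had thresholded summits in the window in 36 cases (66.7%) and at their own promoters in 12 (22.2%), close to the shares of all genes. Outside promoters, 29 of them (53.7%) had one. These genes were longer, with a median of 9962 bp against 3627 bp for the 10 genes, and among the 23 no shorter or longer than the 10 genes are, 10 (43.5%) had such a summit. Among all 7156 genes in that range of length, 29.8% did. The windows of the 10 genes held the TSS of a median of 0 other protein-coding genes, at most 2, against a median of 5 over all genes.

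The maternal and genome activation list had own-promoter peaks at 4 of 9 genes, led by Trl, which encodes the GAGA factor (signal 308), the anterior determinant gene bcd (197) and the posterior determinant gene nanos (196, shared with CG11779). The list of other pair-rule genes had 2 of 6, at the corepressor gene gro (374) and the hairy gene hry (69.8). The list of segment polarity, Wnt and Hedgehog genes had 4 of 18, led by the Wnt feedback inhibitor gene nkd (227), the Wnt coreceptor gene arr (102) and the Hedgehog transducer gene smo (73.7, shared with CG17078). The terminal and head gap list had 1 of 9, at cnc (160), and the Hox and cofactor list 1 of 12, at ftz-f1 (67.0), the gene of a nuclear receptor partner of Ftz. In the window the lists had 7 of 9, 5 of 6, 12 of 18, 4 of 9 and 8 of 12 genes. These shares were 77.8, 83.3, 66.7, 44.4 and 66.7%, against 66.1% of all genes. At their own promoters the shares were 44.4, 33.3, 22.2, 11.1 and 8.3%, against 23.4% of all genes. With 6 to 18 genes per list, no difference from these shares was tested. Among the other pair-rule genes, odd, slp1 and slp2 had 1 thresholded summit each in the window and opa had 0. Only these counts were within the range of eve, ftz, run and prd. The summits of odd, slp1 and slp2 lay outside promoters, while those in the windows of eve and prd lay at promoters of neighbours. The pair-rule gene hry had 7 thresholded summits in its window. Of these, 6 lay outside promoters, a number reached by 50 (0.358%) of all genes.

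**Figure D4:**
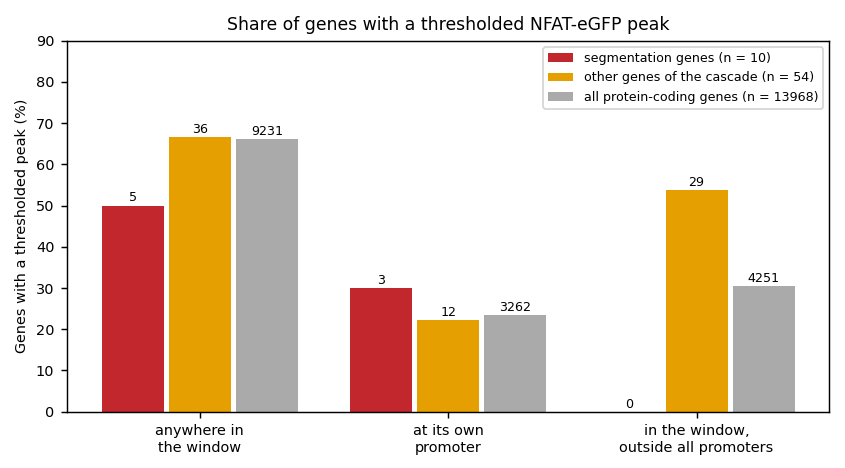
Share of genes (vertical axis, %) with a thresholded peak anywhere in the window, at the own promoter, and in the window outside all promoters, for the 10 segmentation genes, 54 other genes of the cascade and all 13968 protein-coding genes, with gene counts above the bars. At the own promoter the counts are 3 of 10, 12 of 54 and 3262 of 13968. Outside promoters they are 0 of 10, 29 of 54 and 4251 of 13968.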

How the data were processed

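Peak lists on dm6 were used as deposited. By the deposited descriptions, 4 lists come from both replicates together and 4 from a single replicate, each made with a control. The peak caller was not stated. The signal per peak is from the authors' lists, the summit offset is a deposited column, and a score, the −log10 of the global IDR, is in the deposited ranked lists. The authors' thresholded lists hold peaks with a global IDR up to 0.01.

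Of 4924 thresholded peaks, 25 lay off the chromosome arms and were left out. Genes and TSSs came from Ensembl release 115 (BDGP 6.54), sequence from RefSeq Release 6. Replicate peaks were matched by an overlap of at least 1 bp, taking the strongest. The symbols h and nos were matched as hry and nanos. Sequences in annotated UTRs or on an arm not printed here were left out. The counting step was tested on simulated data.

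No test was run, since 2 samples of 1 group give no contrast. All 10 genes are named, with the genes at or nearest to thresholded summits in their windows and, from each list, up to 3 genes with the strongest promoter peak. Outside this rule, named after their values were seen, are genes that share a named promoter peak, the other pair-rule genes odd, slp1, slp2 and opa, and the genes of the closing observations. The 10 genes and the lists were chosen with earlier results of these data known. Alternatives covered other lists, each replicate alone, windows, promoter limits and assignments. Python 3.11.15, NumPy 2.4.6, pandas 2.3.3 and matplotlib 3.10.9 were used. Alignments and signal tracks are not used here.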

Additional observations from a re-analysis of the deposited data

How the results depend on the processing

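Of 54 alternative values, 33 stayed close to the reported one. The limit for close was loose, since a fall from 66.1 to 45.2% and one from 6 peaks to 4 both counted as close. The 33 also include counts that could not move, named below, so the tally does not measure stability. Thresholded summits outside promoters were also absent in the conservative list, in each replicate alone and by overlap. The stronger 50% of peaks, windows of 5 kb and 2 kb and a promoter limit of 1000 bp can only remove such summits. Their count of 0 was therefore fixed in advance and is no check. The count rose to 2 genes with a limit of 250 bp, which places the hb summit and the downstream wg summit outside promoters. It rose to 1 gene (kni) with a window of 20 kb (interval 0.253 to 44.5%, against 47.0% of all genes). The number of genes with a thresholded summit in the window fell from 5 to 2 in the conservative list (59.7% of all genes), to 1 with the stronger 50% of peaks (49.2%), and to 3 with windows of 5 kb (52.5%) or 2 kb (39%), with the nearest TSS required to be that of the gene, or without promoters of other genes. The 6 thresholded peaks fell to 2 in the conservative list and 1 among the stronger 50%, and rose to 10 with a window of 20 kb. The 3 genes with a promoter peak fell to 0 in the conservative list and among the stronger 50%. With a single replicate the counts ranged from 0 to 4 genes and 0 to 4 peaks in the window and from 0 to 3 genes at promoters, the lowest each time without replicate 2. The share of all genes with a summit in the window ranged from 45.2 to 60.6% with a single replicate. It was 67.9% among genes with a ranked peak in the window and 70.8% among genes as long as the 10, both chosen after the data were seen. The median percentile of ranked peaks was 42 to 44.7 with a single replicate, 43.4 without peaks that overlap a thresholded one and 41.1 with a window of 5 kb. With 100 bp on either side of the summit the NFAT core was at 5 of 6 summits and at 45.4% of all, and of 12 other motifs 9 kept their count. No paired analysis was possible because all samples belong to 1 group. The intervals for the alternatives were added after the data were seen. With 10 genes and unknown depth, small differences from the background cannot be seen.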

Other observations

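Beyond the windows, between 10 and 20 kb from the genes, 4 more thresholded summits were found, a range and neighbours chosen after their values were seen. The only one outside promoters lay 16226 bp upstream of kni (3L, 20711462 to 20711745, signal 97.9), 2496 bp from the TSS of CG34260. The others were at promoters of neighbours: Pal1, 127 bp from the summit and upstream of eve (signal 549.8), ThrRS, upstream of prd (137.7), and Unc50, downstream of hb (118.1). Each of the 4 was stronger than any thresholded peak within 10 kb of the 10 genes.

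Windows without any ranked summit were unevenly spread over the arms. They made up 82.5% of the 80 genes on chromosome 4, 5.91% of those on 2L, 2.30% on 3L, 1.87% on X, 1.05% on 2R, 0.614% on 3R and 8.70% of the 23 on Y. The segment polarity gene ci and the Wnt effector gene pan lie on chromosome 4, and neither had a thresholded summit in its window.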
